A study of Mus musculus with 15 samples.

Results

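The genes described here are 10 regulators of oxidative metabolism in the mouse left ventricle: the coactivators Ppargc1a and Ppargc1b, the nuclear receptors Ppara, Ppard, Esrra, Esrrb, Esrrg and Rxra, and the mitochondrial biogenesis factors Tfam and Nrf1. They were taken by symbol from the deposited tables, and all 10 were found among 15258 genes listed and passed the filter on low values that left 11018 genes for testing. The libraries came from male C57BL/6NRj mice, an inbred strain, after sham surgery or transverse aortic constriction (TAC), which narrows the aorta and loads the left ventricle with pressure. Every mouse carried a minipump, which delivered saline to the sham saline and TAC saline groups and neuregulin-1 (NRG), a ligand of the ERBB3 and ERBB4 receptors, to the TAC NRG group. Each group held 5 libraries, and the labels put all 15 in batch 1. No sham mice received NRG in these libraries, so NRG was measured under constriction alone. Neither the age of the mice nor the NRG dose or time after surgery stands in the sources used. Separate mice behind the libraries of a group are likewise not stated, so a p-value here speaks of spread between samples that could be technical.

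The heart draws most of its energy from fatty acids burned in mitochondria, and this set of factors sets much of that capacity. PGC-1α and PGC-1β do not bind DNA themselves: they dock on nuclear receptors such as the PPARs and the estrogen-related receptors (ERRs) and raise transcription of genes for fatty acid oxidation, the tricarboxylic acid cycle and the respiratory chain. PGC-1 proteins also act with NRF1 (nuclear respiratory factor 1), which drives nuclear genes of the respiratory chain and the gene for TFAM, the factor that packages mitochondrial DNA and starts its transcription. In pressure-overloaded and failing hearts this program is known for a decline that accompanies a shift away from fatty acids as fuel.

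The regulators also feed on each other's genes, so the DNA just before the start sites of the 4 whose results or textbook regulation matter most here is shown. The sequences are the 250 bases before the annotated start in RefSeq on GRCm38.p6, read 5′ to 3′ on the strand of the gene, and capitals mark matches to a motif. They lie at chr5:51567726-51567975 (minus strand, Ppargc1a), chr15:85735526-85735775 (plus strand, Ppara), chr19:6921809-6922058 (minus strand, Esrra) and chr10:71238045-71238294 (minus strand, Tfam).
Ppargc1a: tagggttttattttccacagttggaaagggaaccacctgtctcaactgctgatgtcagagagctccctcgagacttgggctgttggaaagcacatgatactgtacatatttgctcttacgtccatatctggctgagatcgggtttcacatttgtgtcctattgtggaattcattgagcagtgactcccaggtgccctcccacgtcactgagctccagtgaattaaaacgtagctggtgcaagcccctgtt
Ppara: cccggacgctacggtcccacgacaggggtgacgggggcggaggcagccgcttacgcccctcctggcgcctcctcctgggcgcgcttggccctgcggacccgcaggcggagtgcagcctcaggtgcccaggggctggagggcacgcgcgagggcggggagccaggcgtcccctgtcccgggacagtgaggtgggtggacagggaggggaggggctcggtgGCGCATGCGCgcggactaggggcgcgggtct
Esrra: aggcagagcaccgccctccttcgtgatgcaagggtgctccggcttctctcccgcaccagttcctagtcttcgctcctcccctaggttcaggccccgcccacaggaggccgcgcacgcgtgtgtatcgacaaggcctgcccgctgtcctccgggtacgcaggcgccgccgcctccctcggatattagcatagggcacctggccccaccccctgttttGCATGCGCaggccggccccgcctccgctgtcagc
Tfam: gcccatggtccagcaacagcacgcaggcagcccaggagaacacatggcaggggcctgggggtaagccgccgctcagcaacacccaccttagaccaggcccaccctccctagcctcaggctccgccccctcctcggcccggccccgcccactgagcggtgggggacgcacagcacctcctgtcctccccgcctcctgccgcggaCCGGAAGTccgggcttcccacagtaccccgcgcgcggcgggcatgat
The search covered 15 windows of 250 bases before to 50 after a start, for 9 of the 10 genes, on both strands; Ppargc1b was not matched in the table. The NRF1 core GCGCATGC, which 2.71% of 32851 such windows hold, was found before Esrra (first base at -34, minus strand) and before Ppara (at -31 and, overlapping on the other strand, at -29). Its letters are part of the palindromic element that NRF1 binds. The ETS site CCGGAAGT, the kind bound by GABPA (nuclear respiratory factor 2), was found at -47 before Tfam and is held by 3.89% of windows. The ERR half-site AAGGTCA (4.72% of windows) was found at -49 in 1 of the Rxra windows. The longer ERR site TNAAGGTCA (1.28%), the PPAR/RXR direct repeat (0.0396%), the cyclic AMP element TGACGTCA (1.79%) and the E-box CACGTG (7.15%) were not found in the 15 windows. These are matches of letters and not measurements of binding.

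Expression was read by BRB-seq, in which pooled, sample-barcoded RNA is sequenced from the 3′ ends of transcripts. Depth, from whole reads that could be worked back from the deposited log2 values, was between 2.02 and 5.62 M reads per library, with a median of 3.39 M. Cardiomyocyte markers were present throughout: 11 genes including Myh6 and Tnnt2 summed to between 73741 and 91800 CPM per library (reads per M on the authors' scaling, from the log2 values). Libraries TAC NRG 4 and TAC NRG 5 stood apart from the other 13. They had the fewest reads (2.02 and 2.13 M), the largest haemoglobin shares (0.366% and 0.350% of reads, against 0.0888% to 0.222% elsewhere), and a level that declined with transcript length, by 0.09 and 0.10 on the log2 scale per doubling, against -0.02 to 0.08 elsewhere. On the second principal component of all tested genes they lay at 32.4 and 35.9, against -17.5 to 3.30 for the others. Results that rest on them are given with and without them. Adipocyte markers were close to 0: 3 of 7 were listed, and these summed to at most 5.80 CPM in any library.

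Of the 10 regulators, 1 fell in TAC saline against sham saline, 0 changed in TAC NRG against TAC saline, and 2 fell in TAC NRG against sham saline (limma on log2 values of all 15 libraries, two-sided, Benjamini-Hochberg adjusted p under 0.05 over the 11018 genes). In the first comparison 10.7% of all genes tested were called and 4.24% were called lower, so 1 of 10 is near the background. For NRG against saline under constriction 1.3% of genes were called. The 0 there becomes 3 of 10 at an unadjusted p under 0.05 (Ppargc1a, Ppargc1b and Ppara), a level that 15.3% of all genes reached, and limma with voom weights also called 0. The contrast of TAC NRG with sham called 16.1% of genes, and 7.39% were called lower, so the count of 2 is again near what all genes gave. These comparisons share groups, so their values are set side by side and not counted as independent. In whole ventricle, fewer cells of a type and less RNA per cell cannot be told apart.

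**Figure D1:**
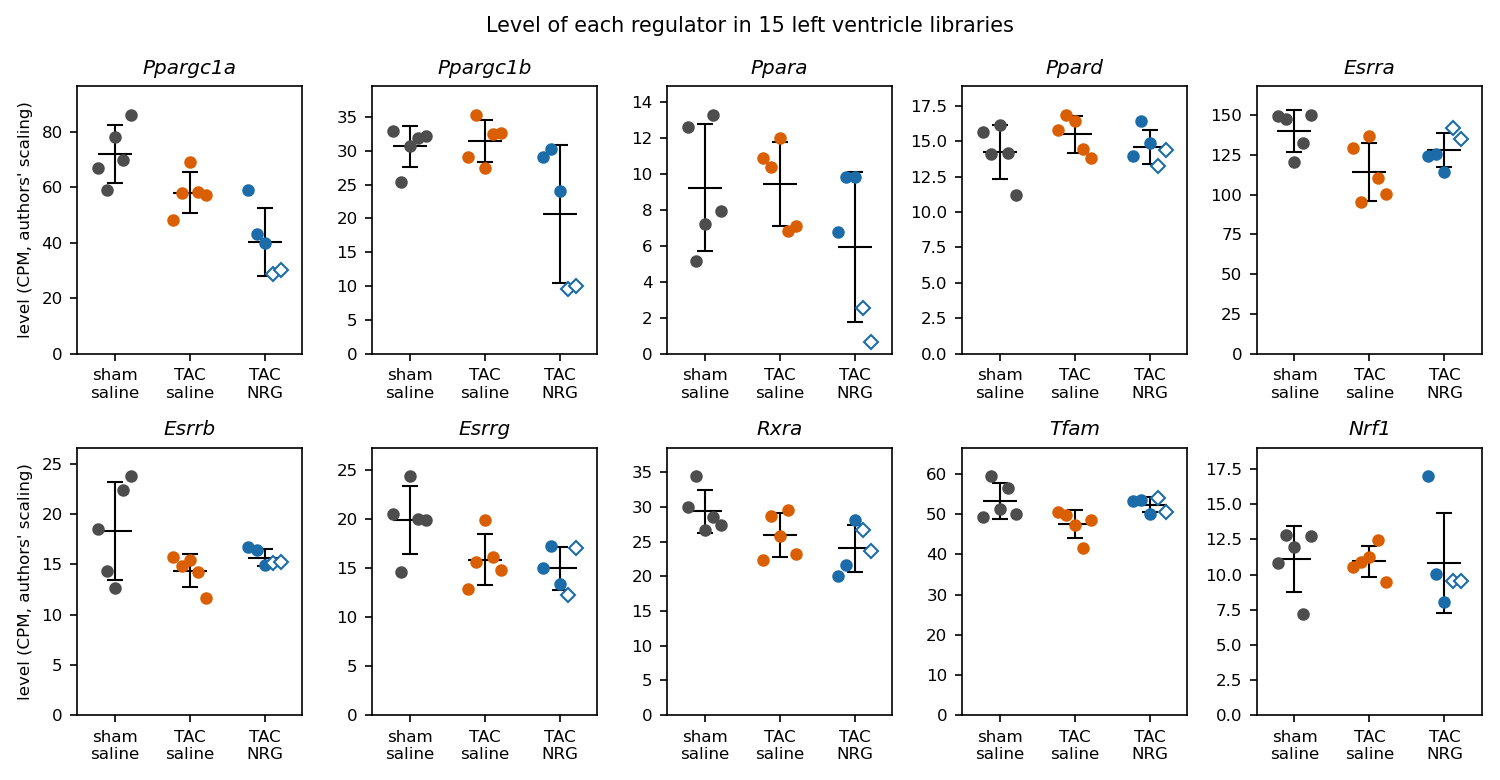
Level of each of the 10 regulators (CPM, authors' scaling, linear axis from 0) in each library of sham saline, TAC saline and TAC NRG, with bars for the mean and SD of 5 libraries and open diamonds for TAC NRG 4 and 5. The Ppargc1a means are 72.2, 58.1 and 40.2 CPM, and neighbouring means did not differ past the threshold. Its lowest values are open diamonds too, and its TAC NRG mean without them is 47.4 CPM. The low Ppargc1b and Ppara values of TAC NRG come from the open diamonds.

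Ppargc1a, which encodes PGC-1α, the cold-, exercise- and energy-stress-inducible coactivator, was lowest in the constricted ventricles that received NRG. Its level in sham saline libraries 1 to 5 was 67.0, 59.2, 78.3, 70.0 and 86.3 CPM. In TAC saline it was 48.1, 57.9, 69.1, 58.5 and 57.1 CPM, and in TAC NRG 59.0, 43.2, 39.9, 28.6 and 30.3 CPM. All 5 TAC NRG libraries lay below all 5 sham libraries, although the closest pair, 59.0 against 59.2 CPM, nearly met. The 4 other TAC NRG libraries lay below the lowest TAC saline library, and 4 of 5 TAC saline libraries lay below the lowest sham library. Group means were 72.2 ± 10.4, 58.1 ± 7.43 and 40.2 ± 12.2 CPM for sham saline, TAC saline and TAC NRG (SD, n = 5 each). Ppargc1a was the only one of the 10 whose libraries did not overlap between TAC NRG and sham, as was true of 11.7% of all genes tested; none of the 10 was apart in TAC saline against sham (8.4% of genes) or in TAC NRG against TAC saline (3.06%).

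Against sham saline, Ppargc1a fell by 0.88 ± 0.15 (SE) on the log2 scale in TAC NRG, to 0.542 times the sham level, with a limma adjusted p of 0.000193 and a 95% interval of -1.19 to -0.58. That call was kept under each of 29 alternative settings, over which the difference ran from -1.03 to -0.62. Leaving out TAC NRG 4 and 5 gave -0.62 with a limma adjusted p of 0.00332. The decline in TAC saline, -0.31 ± 0.15, did not pass (limma adjusted p = 0.204). The difference between TAC NRG and TAC saline, -0.57 ± 0.15, lay just outside the threshold (limma adjusted p = 0.0550). It passed under 5 of the 29 alternatives, with the smallest limma adjusted p of 0.00470 when TAC NRG 1 was left out, and 0.0444 without TAC NRG 2. Without TAC NRG 4 and 5 it was -0.31 with a limma adjusted p of 0.474. Ppargc1a has a long transcript (6464 bases at most, longer than 87.5% of tested genes), and with the length trend of each library removed its TAC NRG difference from sham was -0.80 (limma adjusted p = 0.00029).

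Ppargc1b encodes PGC-1β, the more constitutive relative that shares many targets with PGC-1α. Its level was 33.0, 25.5, 30.8, 31.9 and 32.2 CPM in sham saline 1 to 5 and 29.1, 35.4, 27.5, 32.5 and 32.6 CPM in TAC saline 1 to 5. The TAC NRG libraries had 29.2, 30.4 and 24.1 CPM (1 to 3) and 9.52 and 9.94 CPM (4 and 5). The saline groups overlapped almost completely, and the first 3 TAC NRG libraries lay at or near their range. The fall in TAC NRG against sham, -0.74 ± 0.24 (log2 ± SE, limma adjusted p = 0.0349), rested on 2 libraries, which held 20 and 22 reads of the gene against 79 to 174 in the other 13. Without them the difference was -0.14 (limma adjusted p = 0.548). Leaving out TAC NRG 4 alone (0.120), TAC NRG 5 alone (0.109) or any of sham saline 1, 3, 4 and 5 (0.0653 to 0.0715) also took the limma adjusted p past the threshold. TAC NRG against TAC saline gave -0.78 ± 0.24 (limma adjusted p = 0.100; 0.0416 without TAC NRG 1 and 0.0313 without TAC NRG 2), and TAC saline against sham gave 0.04 ± 0.24 (0.954).

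Ppara encodes PPARα, the fatty-acid-activated receptor that drives genes of fatty acid import and oxidation. It was among the most thinly read of the 10, with 19 to 56 reads in each of the other 13 libraries and 5 and 1 reads in TAC NRG 4 and 5. The level was 12.6, 5.14, 7.18, 13.3 and 7.93 CPM in sham saline 1 to 5, and 10.8, 10.4, 11.9, 6.80 and 7.09 CPM in TAC saline 1 to 5. TAC NRG 1 to 3 were inside that range at 6.77, 9.83 and 9.81 CPM, whereas TAC NRG 4 and 5 were at 2.55 and 0.663 CPM. The single read of TAC NRG 5 is 0.469 per M with an exact Poisson 95% interval of 0.0119 to 2.61 per M, and the 5 reads of TAC NRG 4 are 2.48 per M (0.805 to 5.78), both covering counting error only. Group means were 9.22 ± 3.54, 9.41 ± 2.32 and 5.93 ± 4.19 CPM (SD, n = 5 each). No comparison passed with all libraries: TAC NRG differed by -1.09 ± 0.49 from sham (limma adjusted p = 0.133) and by -1.17 ± 0.49 from TAC saline (0.249), and TAC saline differed by 0.08 ± 0.49 from sham (0.947). The difference from sham passed without TAC NRG 2 (-1.41, limma adjusted p = 0.0488). Without TAC NRG 4 and 5 it was 0.00 (limma adjusted p = 0.998), with a mean of 8.80 ± 1.76 CPM in the 3 libraries left.

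In both TAC NRG 4 and TAC NRG 5, Ppargc1a, Ppargc1b and Ppara were below their level in all 13 other libraries, which held for 592 of 11018 genes (5.37%). The mean of the pair minus that of TAC NRG 1 to 3 was -0.67, -1.51 and -2.74 on the log2 scale for the 3 genes. Only 0.808% of tested genes had a lower value of this difference than Ppargc1b, and 0.145% a lower one than Ppara. The other 7 regulators lay within the range of the other libraries in at least 1 of the pair, with differences of -0.22 to 0.19. Removing the length trend left Ppargc1b at -0.74 in TAC NRG against sham (limma adjusted p = 0.0324) and Ppara at -1.11 (0.132). Their longest transcripts, 3656 and 3413 bases, are near the median of tested genes (3445.5 bases). Removing a trend with length can therefore shift these genes little, so this setting cannot decide what part length has in them. The part of haemoglobin in these low values was not tested.

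**Figure D2:**
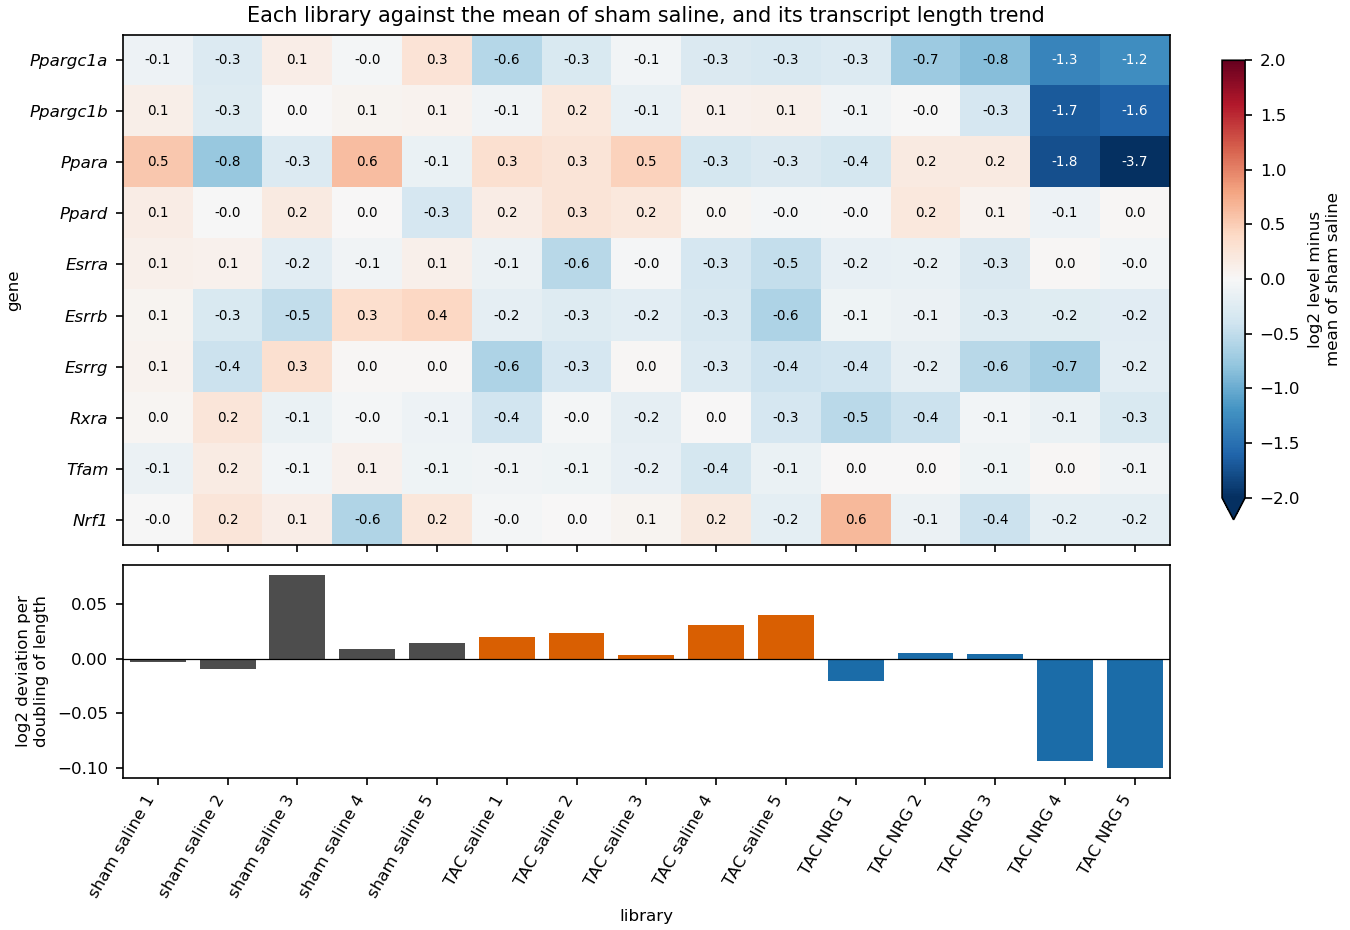
Upper panel: log2 level of each regulator in each library minus the mean of the 5 sham saline libraries, with blue for lower and red for higher. Lower panel: change of log2 level per doubling of transcript length in the same libraries; TAC NRG 4 and 5, the darkest columns for Ppargc1a, Ppargc1b and Ppara, have the most negative trends, at -0.09 and -0.10.

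Ppard encodes PPARδ, the widely expressed PPAR that is also active in heart muscle. It ranged from 11.2 to 16.1 CPM in sham saline, 13.8 to 16.9 CPM in TAC saline and 13.2 to 16.4 CPM in TAC NRG, so the groups overlapped throughout. Its means of 14.3 ± 1.92, 15.5 ± 1.30 and 14.6 ± 1.20 CPM (SD, n = 5 each) differed by less than the spread, with log2 differences of 0.13 ± 0.13, -0.09 ± 0.13 and 0.04 ± 0.13 and limma adjusted p of at least 0.631. Ppard had 28 and 32 reads in TAC NRG 4 and 5 and kept its level there (13.2 and 14.4 CPM), unlike Ppara. Rxra encodes RXRα, the partner with which PPARs bind DNA as heterodimers. It ranged from 26.6 to 34.4 CPM in sham saline, 22.4 to 29.5 CPM in TAC saline and 20.04 to 28.1 CPM in TAC NRG. Its differences from sham of -0.18 ± 0.12 in TAC saline (limma adjusted p = 0.387) and -0.29 ± 0.12 in TAC NRG (0.0999) did not pass.

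The ERRs are orphan receptors whose activity depends on PGC-1 coactivators more than on a ligand. Esrra encodes ERRα, itself a target of PGC-1α in textbook accounts. Its level was 150, 147, 121, 132 and 150 CPM in sham saline 1 to 5, then 129, 95.1, 137, 110 and 100 CPM in TAC saline 1 to 5. TAC NRG libraries 1 to 5 were at 125, 126, 114, 142 and 135 CPM. In TAC saline 3 of 5 libraries lay below all sham libraries and the other 2 lay among them, while TAC NRG lay between the groups and overlapped both. The means were 140 ± 13.1, 114 ± 18.1 and 128 ± 10.7 CPM (SD, n = 5 each). Esrra fell in TAC saline by 0.30 ± 0.10 on the log2 scale (95% interval -0.50 to -0.10), at a limma adjusted p of 0.0496 that only just passed. The call was lost under 16 of 29 alternatives. Scaled by total reads alone the difference was -0.19 (limma adjusted p = 0.209), and with the libraries left out in turn it ranged from -0.37 to -0.24 (0.0120 to 0.152). Leaving out sham saline 1, 2, 4 or 5, TAC saline 2, 4 or 5, or TAC NRG 1 or 2 lost the call (limma adjusted p from 0.0568 to 0.152). TAC NRG did not differ past the threshold from TAC saline (0.17 ± 0.10, limma adjusted p = 0.409) or from sham (-0.13 ± 0.10, 0.430).

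Esrrb and Esrrg encode ERRβ and ERRγ, the latter the ERR most tied to the switch to oxidative metabolism in the newborn heart. Esrrb ranged from 12.6 to 23.8 CPM in sham saline, 11.7 to 15.8 CPM in TAC saline and 14.9 to 16.7 CPM in TAC NRG. Its sham libraries were the most scattered, and the SD was 4.87 CPM in sham against 1.63 and 0.838 CPM in the TAC groups. Esrrg was at 20.6, 14.6, 24.4, 19.98 and 19.9 CPM in sham saline 1 to 5, at 12.9 to 19.9 CPM in TAC saline and at 12.3 to 17.3 CPM in TAC NRG. Sham library 2 lay among the TAC libraries, sham library 5 lay level with the highest TAC saline library, and the other 3 lay above all TAC libraries. The differences of TAC saline from sham were -0.32 ± 0.16 for Esrrb (limma adjusted p = 0.221) and -0.32 ± 0.15 for Esrrg (0.190). TAC NRG differed from sham by -0.19 ± 0.16 for Esrrb (limma adjusted p = 0.477) and by -0.40 ± 0.15 for Esrrg (0.0728). The Esrrg value was the nearest of the 10 to the threshold among those not past it in that comparison and passed when sham saline 2 was left out (-0.51, limma adjusted p = 0.0266). Between TAC NRG and TAC saline the differences were 0.13 ± 0.16 and -0.08 ± 0.15.

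Tfam encodes the mitochondrial transcription and DNA-packaging factor. It was at 49.3, 59.5, 51.2, 56.6 and 50.1 CPM in sham saline 1 to 5, at 41.7 to 50.5 CPM in TAC saline and at 50.1 to 54.1 CPM in TAC NRG. The TAC saline libraries were the lowest group, with 3 of 5 below all sham libraries, and 4 of 5 TAC NRG libraries lay above all TAC saline libraries. The differences were small: -0.17 ± 0.09 for TAC saline against sham (limma adjusted p = 0.260), 0.14 ± 0.09 for TAC NRG against TAC saline (0.462) and -0.02 ± 0.09 for TAC NRG against sham (0.895). Nrf1, encoding nuclear respiratory factor 1, ranged from 7.17 to 12.8 CPM in sham saline, 9.50 to 12.5 CPM in TAC saline and 8.02 to 17.0 CPM in TAC NRG. Its means of 11.1 ± 2.33, 10.9 ± 1.09 and 10.8 ± 3.54 CPM (SD, n = 5 each) were close, its log2 differences were 0.01, -0.06 and -0.06 with an SE of 0.19, and no limma adjusted p was under 0.887. TAC NRG 1, at 17.0 CPM, was the highest library for this gene.

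**Figure D3:**
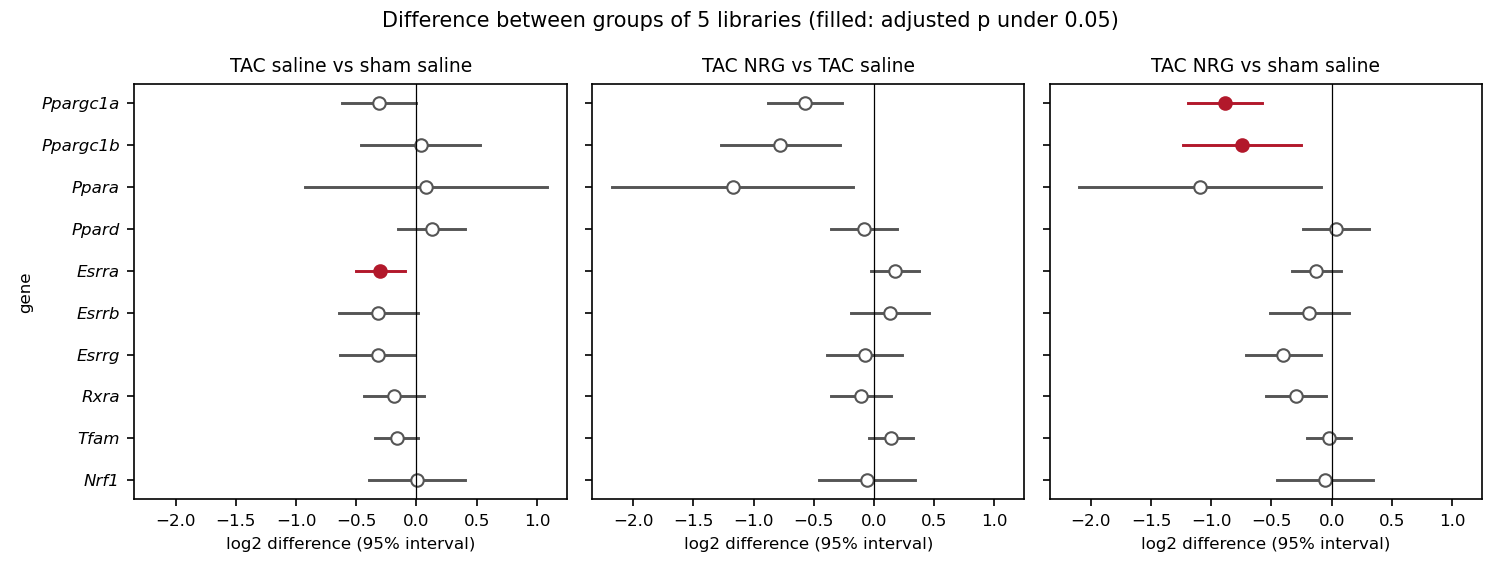
Log2 difference of each regulator (points) with its limma 95% interval (lines) in the 3 comparisons, with filled red points for an adjusted p under 0.05. Esrra in TAC saline against sham and Ppargc1a and Ppargc1b in TAC NRG against sham are filled; the Ppara intervals are the widest, running from -2.18 to -0.17 in TAC NRG against TAC saline.

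Ordered by group mean, Ppargc1a and Esrrg ran sham saline, TAC saline, TAC NRG from high to low, as did Rxra. Esrra, Esrrb and Tfam ran sham saline, TAC NRG, TAC saline. For these 6 genes the difference between sham and TAC NRG of Ppargc1a and that between sham and TAC saline of Esrra passed the test. Neighbouring means of the other 4, and neighbouring means of Ppargc1a, did not differ past the threshold. Ppargc1b, Ppara, Ppard and Nrf1 had no order among sham saline and TAC saline beyond their spread.

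How the regulators varied between libraries of one group was described with group means removed. Over the 15 libraries Ppargc1a and Ppargc1b correlated at r = 0.76 and Ppargc1b and Ppara at r = 0.81, but over the 13 libraries without TAC NRG 4 and 5 these were 0.35 and 0.19. Ppargc1a and Esrrg gave 0.49 over 15 and 0.64 over 13. The tested genes most like Ppargc1a were Yod1, Srpk2 and Fbxl7 (r = 0.88, 0.87 and 0.86, and 0.75, 0.75 and 0.72 over 13 libraries). For Ppara they were Rab11fip2, Cpox and Kmt2c (0.92, 0.91 and 0.91, and 0.40, 0.57 and 0.59 over 13). Those of Esrra were Nt5dc2, Mrps18a and Smpd1 (0.90, 0.85 and 0.85 over 15, and 0.90, 0.84 and 0.84 over 13), and those of Esrrg were Usp47, Kat6b and Trak1 (0.87, 0.83 and 0.83, and 0.87, 0.81 and 0.86). The points of a library share its depth and scaling, and these genes were picked as the highest of 11018, so the values are descriptions.

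Partner coregulators mostly moved little in TAC saline. Of 28 tested, 2 fell and 0 rose, beside 10.7% of all genes called and 4.24% called lower: Cited2, which binds CBP/p300, was at 51.5 ± 13.2 against 71.4 ± 9.33 CPM in sham (SD, n = 5 each; log2 difference -0.49, limma adjusted p = 0.0149), and Prkaa2, the AMPK catalytic subunit that acts on PGC-1α, was at 76.7 ± 4.30 against 95.6 ± 12.1 CPM (-0.31, 0.0438). Under total reads as the only scaling neither passed (limma adjusted p = 0.0564 and 0.211), and the count was also 0 without TAC saline 1, 1 without sham saline 1, 3 or 5, TAC saline 4 or 5, or TAC NRG 1, and 4 without TAC NRG 3. With NRG under constriction, 7 of 28 fell against sham and 0 rose, beside 16.1% of all genes called and 7.39% called lower. Perm1, a muscle regulator induced by PGC-1α and the ERRs, was at 122 ± 17.2 against 179 ± 20.2 CPM (-0.56, limma adjusted p = 0.00109). Its groups did not overlap, as was true of 11.7% of all genes tested. Prkaa2 (-0.48, limma adjusted p = 0.0013), Lpin1, a PGC-1α and PPARα coactivator (-0.48, 0.00339), and Ncor1, a corepressor of nuclear receptors (-0.61, 0.00956), were lower too. Without TAC NRG 4 and 5 Perm1 (-0.61) and Prkaa2 (-0.42) still passed, Lpin1 (limma adjusted p = 0.0542) and Ncor1 (0.134) did not, and 4 of 28 fell. Between TAC NRG and TAC saline 0 of 28 passed, with Cited2 nearest (0.50, limma adjusted p = 0.0575).

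Among 25 other nuclear receptors tested, 3 fell and 0 rose in TAC saline against sham. Of all genes, 10.7% were called and 4.24% called lower. The count of receptors that fell was 1 with total reads as the only scaling, without the mean-variance trend in limma, and without sham saline 1 or 4 or TAC saline 1 or 5. Rxrg, the muscle-rich RXR, was at 62.6 ± 7.91 against 87.8 ± 6.98 CPM (SD, n = 5 each; log2 difference -0.49, limma adjusted p = 0.00432). Thrb, thyroid hormone receptor β, gave -0.61 (limma adjusted p = 0.0464). The TAC NRG group had 5 lower than in sham, beside 7.39% of all genes called lower and 16.1% called in either direction. Among the 5 were Rxrg (-0.61, limma adjusted p = 0.000334), the mineralocorticoid receptor Nr3c2 (-0.59, 0.0150) and thyroid hormone receptor α, Thra (-0.46, 0.0175). In that comparison 3 rose: Nr0b2 (0.68, limma adjusted p = 0.0135), Pparg, the third PPAR (0.58, 0.0259), and Rara (0.55, 0.0407). Leaving out sham saline 1 or 5 or TAC NRG 1 or 3 left 3 lower, and leaving out sham saline 2 or 3 or TAC NRG 1, 3 or 4 left 1 higher. Without TAC NRG 4 and 5 the count was 3 lower and 0 higher, and Pparg gave 0.59 (limma adjusted p = 0.0594). Rxrg was lower in each of the 3 scalings and without the pair (-0.73, limma adjusted p = 0.000165). Between the TAC groups 0 of 25 passed.

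**Figure D4:**
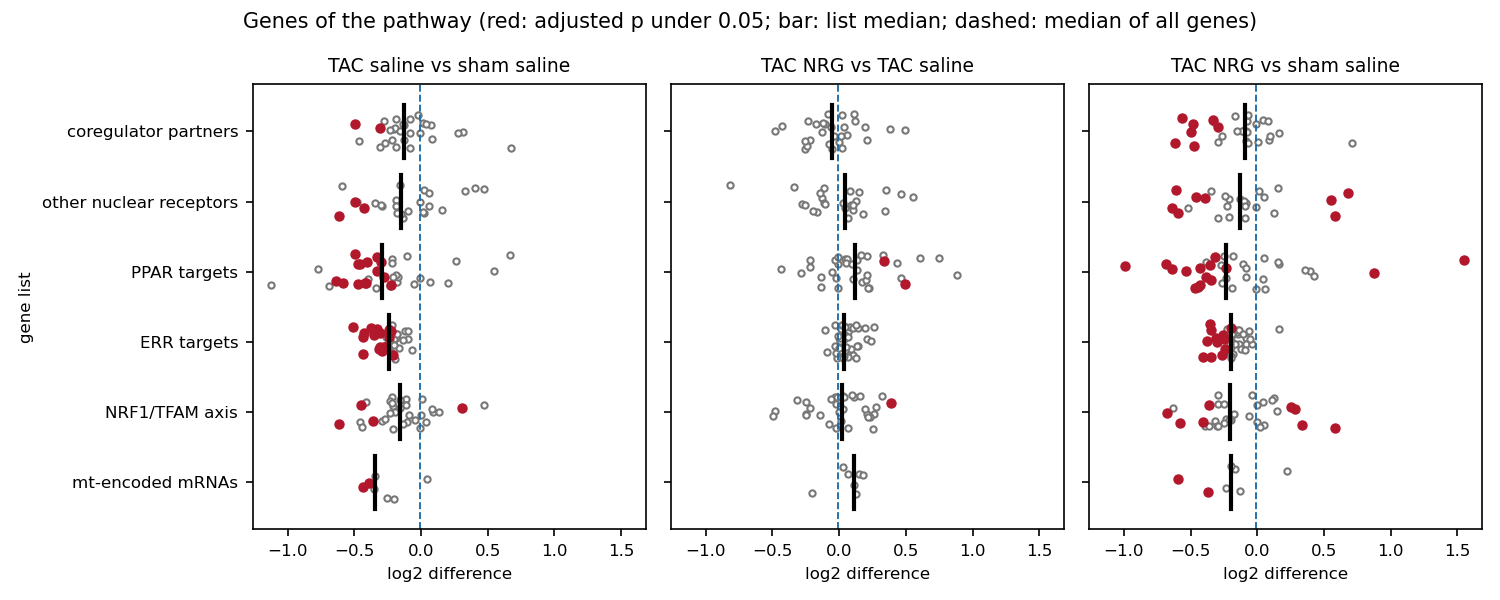
Log2 difference of every tested gene of 6 lists around the 10 regulators (points; red for a limma adjusted p under 0.05), with the list median (bar) and the median of all genes (dashed line). In TAC saline against sham, 14 of 34 PPAR targets and 17 of 42 ERR targets are red on the lower side. In TAC NRG against TAC saline 2 PPAR targets are red on the higher side and 0 ERR targets are red.

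Of 34 known PPAR target genes tested, 14 fell and 0 rose in TAC saline against sham, beside 10.7% of all genes called and 4.24% called lower. The list median was -0.29 on the log2 scale against -0.01 for all genes. Leaving out any of sham saline 2, TAC saline 1 and TAC saline 5 brought the count to 8, and leaving out sham saline 5 brought it to 9. Ech1 was at 874 ± 135 against 1297 ± 71.3 CPM in sham (SD, n = 5 each; log2 difference -0.58, limma adjusted p = 0.000206). The other steps of mitochondrial fatty acid oxidation named by the same rule, Acadm (-0.47, limma adjusted p = 0.000846), Hadhb (-0.47, 0.00164) and Acaa2 (-0.50, 0.00174), likewise had no overlap between groups. That held for 8.4% of all genes tested, and these genes were named for the smallest adjusted p of the list. TAC NRG against sham gave 13 lower, including Acaa2 (-0.53), Acadm (-0.43), Eci1 (-0.47) and the peroxisomal Pex11a (-0.64), and 2 higher, the mitochondrial carrier Ucp2 (0.88, limma adjusted p = 0.00192) and Angptl4, an inhibitor of lipoprotein lipase (1.55, 0.0240). The list median was -0.23, 24 of 34 were below 0, and 7.39% of all genes were called lower. The count of 2 higher was 1 without sham saline 1, 4 or 5, without TAC NRG 3 or 4, and without TAC NRG 4 and 5 together. It was also 1 without the mean-variance trend in limma, with a robust spread and with thinning to the fewest reads. Other settings raised it to as many as 4, with total reads alone and with only the 2 groups compared. Between the TAC groups 2 of 34 were higher with NRG and 0 lower, beside 1.3% of all genes called. The 2 became 0 without TAC NRG 4, TAC NRG 5 or both, without TAC saline 1 or 5, and without sham saline 1, 4 or 5. It was also 0 with total reads alone, with voom weights, without the mean-variance trend in limma and with only the 2 groups compared. Among the 2 was the fatty acid transporter Slc27a1 (0.49, limma adjusted p = 0.0443). Slc27a1 did not pass without TAC NRG 4 and 5 (limma adjusted p = 0.301) or when scaled by total reads alone (0.0557).

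Of 42 ERR targets, 17 fell and 0 rose in TAC saline against sham, beside 4.24% of all genes called lower, and the differences of all 42 were below 0 with a median of -0.24. Single libraries moved this count: 32 targets fell when TAC saline 3 was omitted, 7 when TAC saline 5 was, 10 when sham saline 1 or TAC saline 4 was, and 11 when sham saline 5 or TAC saline 1 was. Sdha, the flavoprotein of complex II, was at 709 ± 61.4 against 916 ± 48.3 CPM (SD, n = 5 each; log2 difference -0.37, limma adjusted p = 0.00216). Coq9 of coenzyme Q synthesis (-0.44, limma adjusted p = 0.00351), the muscle cytochrome oxidase subunit Cox7a1 (-0.51, 0.00623) and Idh3g of the tricarboxylic acid cycle (-0.35, 0.00642) fell with it. Against sham, TAC NRG had 13 lower and 0 higher, beside 7.39% of all genes called lower. The median was -0.20 with 41 of 42 below 0, and the 13 became 7 without TAC NRG 3 and 8 without TAC NRG 1. Sdha was at 706 ± 56.1 CPM (-0.38), and Ndufs1 of complex I (-0.35), Coq10a (-0.36) and Coq9 (-0.35) were the next named. Between the TAC groups 0 of 42 passed and the median was 0.04. The counts depended on scaling: with total reads alone 8 of 34 PPAR targets and 7 of 42 ERR targets fell in TAC saline, and the medians were -0.18 and -0.13, at a shift of 0.10 in the median of all genes. Without the mean-variance trend in limma, 9 of 34 and 5 of 42 fell there. In TAC NRG against sham 5 of 42 ERR targets fell with total reads alone, 4 without the trend, 21 with total reads counted without mitochondrially encoded genes, and 22 with the length trend removed. With TAC NRG 4 and 5 left out, 13 PPAR targets and 16 ERR targets fell in TAC NRG against sham. Fibroblast markers moved with both TAC groups, 5 of 8 higher and 1 lower in each against sham (summed level 1871 to 2055 CPM in sham saline, 2082 to 3137 in TAC saline and 2288 to 3509 in TAC NRG), and macrophage markers were higher for 5 of 7 in TAC saline (155 to 226 CPM in sham saline, 197 to 311 in TAC saline); their part in the lower target levels was not tested. No fibroblast marker was at 0 in any group. Cardiomyocyte markers did not move one way, with 3 of 11 higher and 2 lower in TAC saline and 3 higher and 3 lower in TAC NRG. Beside these marker counts, 10.7% of all genes were called in TAC saline and 16.1% in TAC NRG, each against sham.

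On the side of mitochondrial DNA expression, 32 genes tested gave 3 lower and 1 higher in TAC saline against sham, a share near the 10.7% of all genes called. The 3 lower became 1 with total reads alone, without the trend, and without sham saline 3 or TAC saline 1, 4 or 5, and the 1 higher became 0 without the trend and without sham saline 2, 3 or 4 or TAC saline 1 or 5. The matrix protease subunit Clpp (-0.45, limma adjusted p = 0.0088), the mitochondrial mRNA stabiliser Lrpprc (-0.36, 0.0286) and the ribonucleotide reductase subunit Rrm2b (-0.61, 0.0442) fell, and Alas1, the first enzyme of haem synthesis and a known PGC-1α target, rose (0.30, 0.0306). For TAC NRG against sham 16.1% of all genes were called, and 7.39% were called lower. Of the 32 genes, 4 were lower, Mterf2, Rrm2b, Mgme1 and Dguok (-0.58, -0.67, -0.40 and -0.37), and 4 higher, Alas1, Tomm20, Lonp1 and Gabpb1 (0.34, 0.26, 0.28 and 0.58). Leaving out TAC NRG 4 and 5 these counts were 1 and 1, and with single libraries left out they were as low as 2 lower (without sham saline 1 or 5 or TAC NRG 3 or 5) and 1 higher (without sham saline 3 or 4 or TAC NRG 4). Lonp1, the protease that degrades TFAM, was the single call of 32 in TAC NRG against TAC saline, at 87.2 ± 10.2 against 66.3 ± 4.89 CPM (SD, n = 5 each; 0.39, limma adjusted p = 0.0351), and it did not pass without TAC NRG 4 and 5 (0.30, 0.268). That count of 1, beside 1.3% of all genes called, was also 0 with TAC saline 1, 2, 4 or 5 or TAC NRG 2, 4 or 5 left out. Red cell markers rose in TAC NRG, 5 of 5 against both TAC saline and sham. In TAC saline against sham 0 of 5 passed. These counts were made with all libraries only. The haemoglobin share of reads was 0.366% and 0.350% in TAC NRG 4 and 5. In TAC NRG 1 to 3 it was 0.222%, 0.200% and 0.189%. It was 0.0888% to 0.221% in sham saline and 0.107% to 0.161% in TAC saline. The part of blood in the Alas1 level was not tested. Of the 7 mitochondrially encoded mRNAs tested, mt-Nd5 (-0.39, limma adjusted p = 0.0163) and mt-Nd2 (-0.44, 0.0216) fell in TAC saline, and both were lower in TAC NRG against sham (-0.59, 0.000283, and -0.37, 0.0386). The shares of all genes called lower were 4.24% in TAC saline against sham and 7.39% in TAC NRG against sham. The list medians were -0.35 and -0.20, with 6 of 7 below 0 in each. Mitochondrially encoded genes took 30.5% to 31.8% of reads in sham saline, 26.0% to 29.6% in TAC saline and 23.7% to 29.0% in TAC NRG. In TAC saline 4 of the 7 fell with voom weights and with a robust spread, and 3 with total reads counted without mitochondrially encoded genes. In TAC saline 1 of the 7 fell with total reads alone, without the low-value filter, without the trend, with the replicate block and without sham saline 1, 2 or 3 or TAC saline 5, and 0 fell without TAC saline 1. In TAC NRG against sham 1 of the 7 fell without the low-value filter, with the replicate block, without any one of the 5 sham libraries, and without TAC NRG 1, 3, 4 or 5. Tfam itself differed by at most 0.17 in any comparison.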

How the data were processed

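Libraries were made by 3′-end BRB-seq from total RNA of frozen ventricle, per the labels' protocols, and the submitters' processing notes name genome build GRCm39; aligner and counter: not given in the sources used here. Each deposited value is, by its spacing, the authors' log2 of a library-specific factor times the read number plus 0.5: 98.9% to 99.5% per library lay within 0.05 of a whole read once the factor was undone. CPM are these values taken out of the log and given as reads per M, so they hold the added 0.5 read. Depth was 2.02 to 5.62 M reads per library, and the median SE of a log2 difference was 0.16.

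A gene entered the test with 15 or more reads in all and 2.95 per M (10 reads at median depth) in 5 or more libraries, so that 11018 were kept and 4240 left out. A linear model for 3 groups with a mean-variance trend (limma 3.58.1, R 4.3.3) was fitted to the log2 values of all 15 libraries, because the files hold no raw counts, with Benjamini-Hochberg adjustment over all genes tested and a threshold of 0.05. In simulated data for TAC saline against sham saline with 11018 genes, 37.9% of changes of 1.5-fold, 77.6% of those of 2-fold and 98.2% of those of 4-fold were found, and 3.92% of calls were false. The 10 regulators and the gene and marker lists were chosen with earlier results of these data known. From each list the text names up to 4 genes past the threshold per comparison and direction, those with the smallest adjusted p, or up to 2 where none passed; groups of at most 5 apart from this rule were named after their values were seen. Some genes that the rule names are not reported here. The most alike genes are the 3 with the highest correlation after group means were removed, predicted genes left out. Alternatives covered scaling, pseudocount, filter, limma variants, groups fitted, replicate block and libraries left out; removing a trend with transcript length (longest transcript in GENCODE vM21) and thinning to the shallowest library were chosen after seeing the data. Same-numbered libraries of different groups correlated at -0.25 to 0.08, so replicate numbers were not treated as pairs. Promoter windows came from RefSeq on GRCm38.p6, and no coordinates of the files' own build were used. Python 3.11.15, pandas 2.3.3, numpy 2.4.6 and matplotlib 3.10.9 made the tables and plots.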

Additional observations from a re-analysis of the deposited data

Results flagged for a closer look

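Ppargc1b in sham saline 2 was the one value that lay apart within its group, at 25.5 CPM against 30.8 to 33.0 CPM in the other 4 sham libraries. On the log2 scale its gap to the nearest library was 0.73 of the range of the group. That is above Dixon's 95% critical value of 0.71 for 5 samples, whereas on the CPM scale the gap falls just short of it. The 10 regulators gave 30 groups of 5 libraries to examine, of which 1 met this rule, and chance meets it in about 1 in 20 groups. With sham saline 2 left out, the difference of TAC NRG from sham for this gene was -0.81 (limma adjusted p = 0.0378), beside -0.74 with all libraries (0.0349).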

How the results depend on the processing

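Of 870 values of single regulators under alternatives, 808 kept their direction and side of the threshold, 29 lost the threshold, 9 gained it and 24 changed sign; each change of sign was of a difference not past the threshold. The cause of the changes below was not tested.

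The count of regulators called in TAC saline against sham (1, Esrra) was 0 under total reads as the only scaling, total reads without mitochondrially encoded genes, median-of-ratios size factors, no low-value filter, no trend in limma, the replicate block and thinning, and 0 to 1 with single libraries left out. In TAC NRG against TAC saline (0) it was 1 with total reads without mitochondrially encoded genes, a pseudocount of 2 reads and thinning, and 0 to 2 with single libraries left out: 2 without TAC NRG 1 or without TAC NRG 2. In TAC NRG against sham (2) it was 1 with total reads, voom weights, no trend, a robust spread, only the 2 groups compared, thinning and without TAC NRG 4 and 5, and 1 to 3 with single libraries left out. Counts of all genes called were 726 (1180) in TAC saline against sham and 40 (143) in TAC NRG against TAC saline without the trend, and in the latter 77 with only the 2 groups compared and 39 without TAC NRG 4 and 5. Leaving out single libraries gave 636 to 1495, 58 to 229 and, for TAC NRG against sham (1777), 1338 to 1854 genes. The libraries that moved a count by over 1.5 times were TAC saline 1 (708) and 5 (636) in TAC saline against sham, and TAC saline 1 (78), 4 (92) and 5 (93) and TAC NRG 2 (229), 4 (58) and 5 (77) in TAC NRG against TAC saline. Total reads as the only scaling turned the split of higher to lower calls from 713 and 467 to 1078 and 191 in TAC saline against sham, and from 963 and 814 to 1364 and 434 in TAC NRG against sham.

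Single libraries left out gave sign changes within these ranges. In TAC saline against sham they were -0.030 to 0.081 for Ppargc1b, -0.11 to 0.24 for Ppara and -0.14 to 0.065 for Nrf1. For TAC NRG against TAC saline they were -0.15 to 0.0067 for Esrrg and -0.24 to 0.032 for Nrf1. For TAC NRG against sham they were -0.044 to 0.086 for Ppard, -0.052 to 0.016 for Tfam and -0.23 to 0.037 for Nrf1. Other sign changes were, in TAC saline against sham, Ppargc1b thinned (-0.025) and Nrf1 with voom weights (-0.0023), with the length trend removed (-0.0053) and thinned (-0.087). Without TAC NRG 4 and 5, Nrf1 gave 0.026 against TAC saline and 0.032 against sham, and Ppara gave 0.0018 against sham. With total reads as the only scaling, Tfam gave 0.069 and Nrf1 0.036 in TAC NRG against sham.

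With the replicate block 1049, 111 and 1645 genes were called in the 3 comparisons and Esrra in TAC saline gave a limma adjusted p of 0.0798; 7 of 30 pairs of a library and another group correlated best with their own number, so the numbers are shared names. Depth limits Ppara and Nrf1 most, with as few as 1 and 20 reads in a library.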
